A study of Danio rerio with 4 samples.

Results

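Isolated CTCF peaks are those that stand alone in sequence where few other peaks were called. A peak counted as isolated when its centre lay more than 100 kb from the centre of the neighbouring peak on the left and from that on the right. Chromosomes 1 to 25 without 4, 18 and 22 were searched, which leaves 22 chromosomes with 32075 of the 37625 peaks in the list. The first and the last peak of a chromosome have a neighbour on 1 side and could not qualify. Of the 32031 peaks with neighbours on both sides, 569 were isolated (1.78%). The members were chosen by the positions of the called peaks alone, so their spacing and placement are described without a test, and only score, width and summit position, which the rule did not use, were tested. Width and summit position may still depend on spacing. Called peaks lay at least 101 bp apart, edge to edge, and whether closer sites were joined into 1 wider peak was not tested.

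CTCF, a DNA-binding protein with many zinc fingers, recognises a long and conserved motif. In vertebrates it stops the cohesin ring as cohesin extrudes chromatin, so that pairs of CTCF sites come to mark the bases of loops and the borders of topologically associating domains. Peaks often lie in groups at such borders, whereas an isolated peak has no other called site in its surroundings.

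The chromatin came from whole zebrafish embryos of strain AB at 24 hpf (hours post fertilisation), with the genotype given as ctcf{HPSH} in the labels, collected from crosses of ctcf HA/wt fish. Each of the 2 ChIP libraries drew on 2000 pooled embryos, and the tagged protein was pulled down through its HA epitope. The 2 libraries of input DNA came from the same genotype and stage, and no group without the tag was among the samples. The labels do not say whether embryos were sorted by genotype. Peaks were called on the combined ChIP replicates, so no peak has a value per replicate, and the sequencing depth is unknown. In whole embryos, binding in fewer cells and weaker occupancy per cell cannot be told apart.

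Isolated CTCF peaks were unevenly spread over the chromosomes. There were 25.9 ± 11.4 per chromosome (SD, n = 22 chromosomes), and the lowest, median and highest numbers were 9, 26.5 and 52. Chromosome 5 had the most, with 52 (95% exact Poisson interval 38.8 to 68.2, counting error only, as if peaks were independent), followed by chromosome 7 with 46. Chromosome 11 had the fewest, with 9 (4.12 to 17.1), and chromosome 19 had 11. Longer chromosomes tended to hold more, with a Pearson's r of 0.812 and a Spearman's rho of 0.727 over the 22, as a description. The lengths spanned were 71.7 and 74.1 Mb for chromosomes 5 and 7, and 45.1 and 48.8 Mb for chromosomes 11 and 19. Per length the order was similar at its ends. Chromosome 5 held 7.25 isolated peaks per 10 Mb, chromosome 13 held 6.76, chromosome 19 held 2.26 and chromosome 11 held 1.995.

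**Figure D1:**
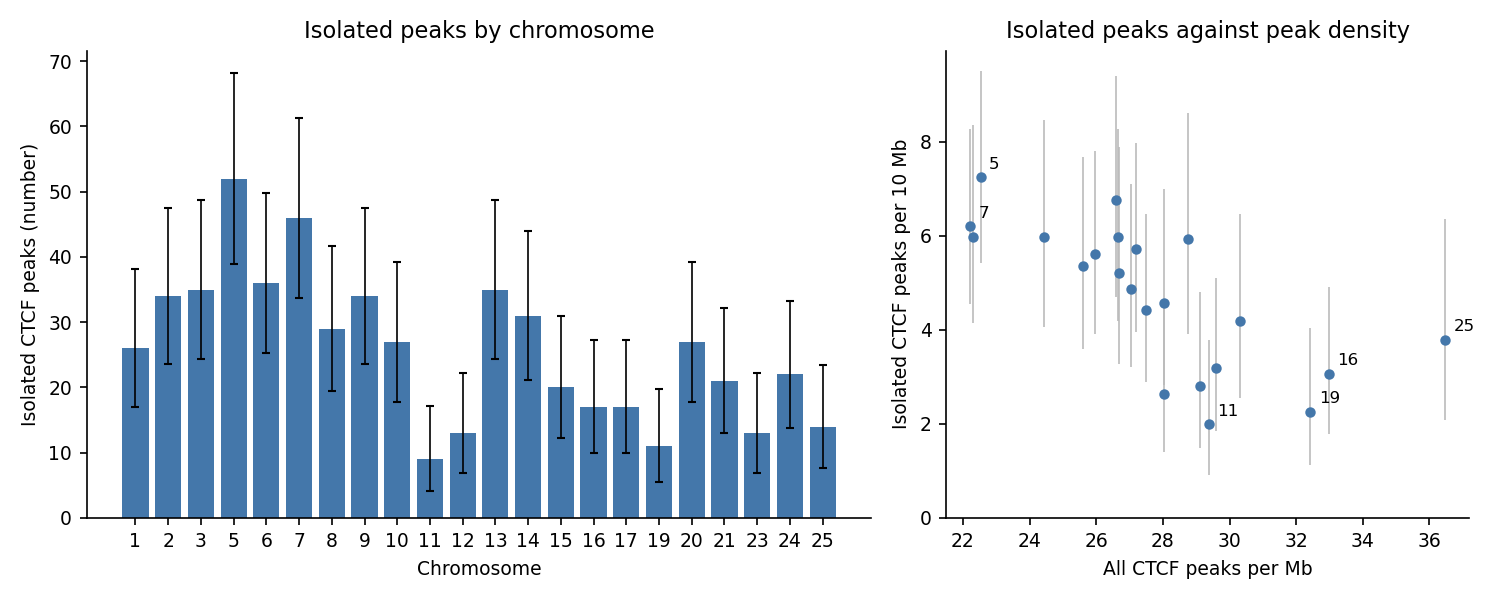
Left, the number of isolated CTCF peaks on each of the 22 chromosomes, with 95% exact Poisson intervals as error bars; right, isolated peaks per 10 Mb against all CTCF peaks per Mb, 1 point per chromosome, with the same intervals. The numbers run from 9 on chromosome 11 to 52 on chromosome 5, and chromosomes with many peaks per Mb lie low on the right.

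As a share of a chromosome's peaks, isolated peaks made up between 0.679% on chromosome 11 and 3.22% on chromosome 5. Chromosomes with fewer peaks per Mb had more of them, which the rule favours, since wide spacing and low density are views of the same positions. Across the 22 chromosomes, isolated peaks per 10 Mb and all peaks per Mb had a Pearson's r of -0.711 and a Spearman's rho of -0.822, given as a description because both come from the same list. Chromosomes of like density had different values, with overlapping intervals. Chromosomes 12 and 21, each with 28.03 peaks per Mb, held 2.64 (exact Poisson interval 1.41 to 4.52) and 4.58 (2.83 to 6.997) isolated peaks per 10 Mb. These values rest on 13 and 21 isolated peaks. Chromosome 25, the densest of the 22 with 36.5 peaks per Mb, held 3.79 (2.07 to 6.37). Chromosome 11, with 29.4 peaks per Mb, held the fewest per length, 1.995 (0.912 to 3.79), and these intervals overlapped too. These are descriptions, with no test of the difference.

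Most isolated peaks lay deep inside the chromosomes. Their median distance from the nearer chromosome end was 18.002 Mb (quartiles 12.2 and 23.2 Mb), against 8.70 Mb (quartiles 3.33 and 16.6 Mb) for the other 31506 peaks of the same chromosomes. More than 10 Mb from both ends lay 473 isolated peaks (83.1%), against 45.8% of the others. On the way from an end to the middle, with the middle at 100%, the median isolated peak stood at 66.0% and the median other peak at 33.3%. The median was larger for the isolated peaks in 22 of 22 chromosomes, with a lowest excess of 9.81 percentage points and a highest of 52.5. The rule favours such placement, since called peaks were sparser inward, from 72.75 per Mb in the outermost 1 Mb to 17.7 past 20 Mb. Peaks with more than 100 kb free on 1 side only came closer, with a median distance of 15.6 Mb. Of these, 72.0% lay more than 10 Mb from both ends. For other peaks of the 1 Mb bins that hold an isolated peak, the values were 16.3 Mb and 76.0%. Chromosome ends were taken as the first base and the end of the last peak.

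**Figure D2:**
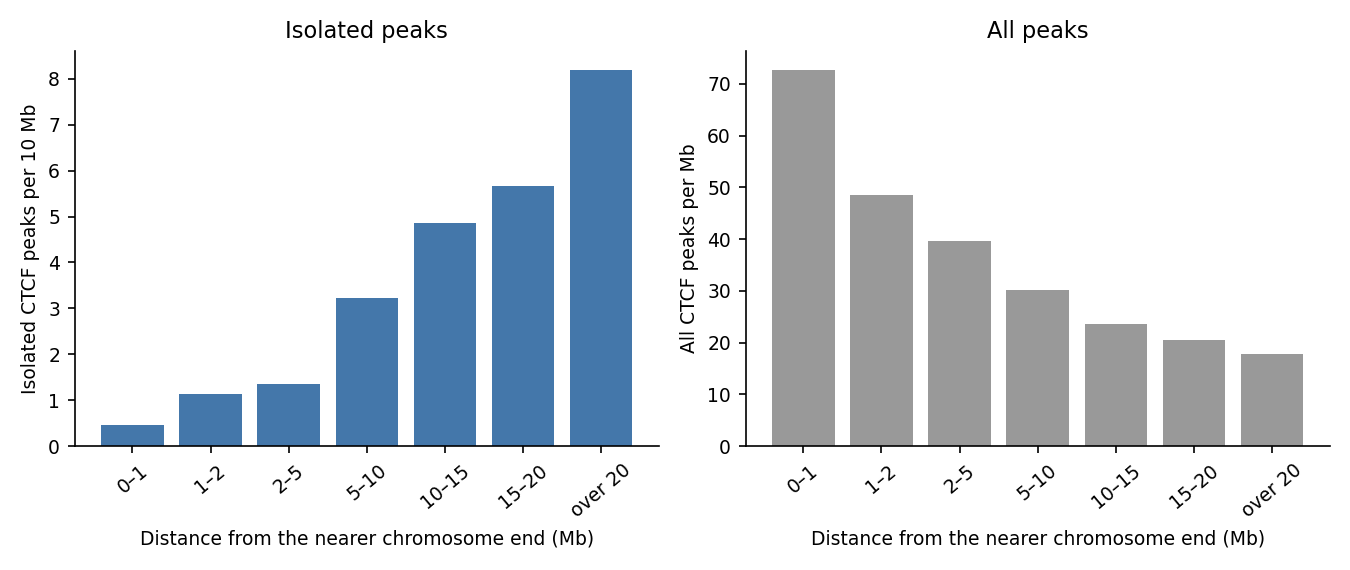
Isolated CTCF peaks per 10 Mb (left) and all CTCF peaks per Mb (right) in classes of distance from the nearer chromosome end, pooled over the 22 chromosomes; bars start at 0 and no error is drawn. Isolated peaks go from 0.455 per 10 Mb in the outermost class to 8.20 in the innermost, and all peaks from 72.75 to 17.7 per Mb.

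The number per length was higher at every step inward. There were 0.455 isolated peaks per 10 Mb in the outermost 1 Mb, 1.36 between 2 and 5 Mb, 4.86 between 10 and 15 Mb and 8.20 past 20 Mb. The share of all peaks that were isolated went from 0.0625% (2 of 3201) to 4.62% (243 of 5255) between the outermost and the innermost class. Only 7 isolated peaks (1.23%) lay within 2 Mb of an end, against 16.9% of the others. The share was 3.41% for peaks with more than 100 kb free on 1 side only. The outermost pair, singled out after their values were seen, differed widely in score. The peak at 59220164 to 59220425 on chromosome 2 stood 0.312 Mb from the end and scored 115, rank 1615 of 1619 on its chromosome. The peak at 682723 to 683486 on chromosome 24, 0.683 Mb from the end, had the highest score of all isolated peaks, 1572, rank 8 of 1127.

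The flanks of an isolated peak were often wide. The distance to the nearest peak had a median of 122 kb (quartiles 108 and 149 kb) and reached 421 kb. The farther neighbour stood at a median of 185 kb (quartiles 144 and 256 kb), and both flanks together measured a median of 312 kb and a maximum of 1127 kb. The wider flank was on the left for 280 isolated peaks and on the right for 289. It faced the middle of the chromosome for 302 and the nearer end for 267. These chromosomes had 2884 intervals of more than 100 kb between neighbours, 8.998% of 32053, and 1019 of them (35.3%) had an isolated peak at 1 end or both. The stretches beside isolated peaks added up to 177 Mb, or 15.0% of the 1173 Mb spanned.

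**Figure D3:**
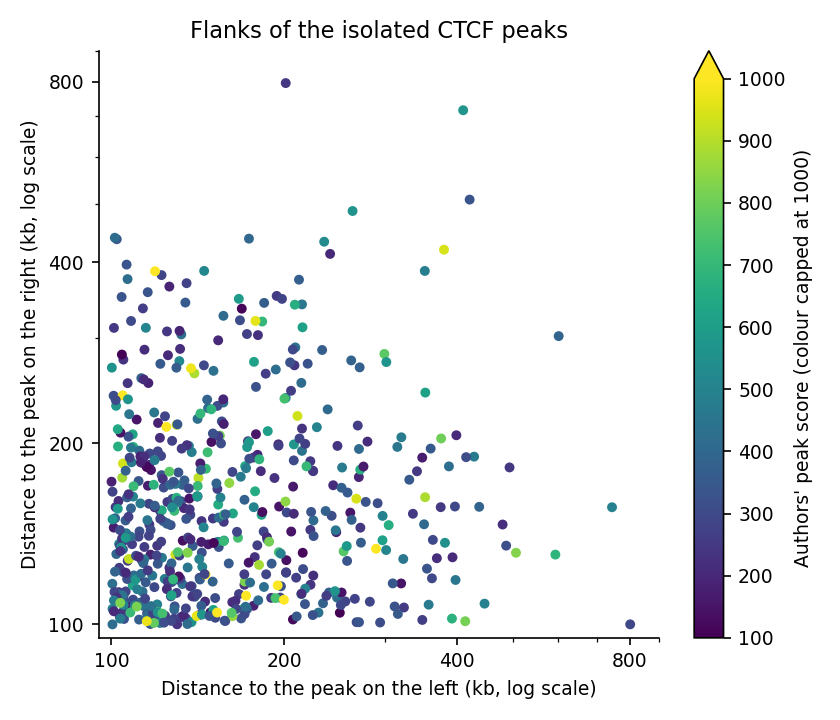
Each point is 1 of the 569 isolated CTCF peaks, placed by its distance in kb to the neighbouring peak on the left and on the right, both on log axes; colour is the authors' peak score, capped at 1000. Most points crowd near 100 to 200 kb on both axes, and high and low scores are mixed throughout.

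The 10 most isolated peaks lay on chromosomes 5, 7, 8, 9, 10 and 14, and 4 of them were on chromosome 9. The farthest from any other peak was at 24260900 to 24261138 on chromosome 8 (danRer10, as all positions here), with 421 kb to its left and 509 kb to its right. It was 239 bp wide and scored 337, rank 779 of 1387 on its chromosome. The next stood on chromosome 5 at 27266758 to 27267457, with 410 kb and 717 kb, a width of 700 bp and a score of 569. The peak on chromosome 14 at 27983825 to 27984514 had 380 kb and 420 kb, was 690 bp wide and scored 944, rank 71 of 1269. These 3 peaks thus ranged from the middle of their chromosome's scores to its top.

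The 4 on chromosome 9 were at 10110756 to 10110984, 16860332 to 16860722, 32036702 to 32037049 and 36509613 to 36509864. Their scores were 388, 483, 772 and 385, and their distances to the nearest peak 262, 352, 282 and 302 kb. Chromosome 7 had a pair, at 47146650 to 47147120 with a score of 563 and at 57738205 to 57738411 with a score of 375. The one on chromosome 10, at 18675268 to 18675604, scored 563. No score among the 10 was below 337, which is the median of all isolated peaks.

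Peaks just inside and just outside the limit are given as a description. The isolated peaks nearest to the limit were neighbours on chromosome 24, at 17348098 to 17348337 and 17448105 to 17448391, 100.031 kb apart, with scores of 415 and 184. The third was on chromosome 9 at 43351276 to 43351495, with 100.038 kb on the right, 801 kb on the left and a score of 293. Just outside were peaks on chromosome 7 (60696668 to 60696939, 99.979 kb, score 252), chromosome 14 (22074645 to 22075094, 99.963 kb, score 273) and chromosome 1 (15071758 to 15072037, 99.735 kb, score 308).

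Some isolated peaks followed each other. With no other peak between them, 213 stood in a run and 356 stood singly. The rule favours runs, since each neighbour of an isolated peak already has more than 100 kb free on 1 side. Of the 2884 intervals of more than 100 kb, 900 had an isolated peak at 1 end and 119 at both. Whether runs were more frequent than this spacing gives was not tested. There were 74 runs of 2, 17 runs of 3, 1 run of 4 and 2 runs of 5, and 25 peaks had an isolated peak as the neighbour on both sides. The run on chromosome 5 stretched from 46162417 to 46703440, with scores of 295, 570, 555, 170 and 295 in order of position. With the empty flanks on either side it measured 1207 kb. The run on chromosome 9, from 39604335 to 40466248, had scores of 289, 257, 891, 629 and 312 and measured 1213 kb with its flanks. The run of 4 on chromosome 3, from 37820407 to 38212767, had scores of 319, 176, 667 and 333. Each of these runs held scores below and above 337, the median of all isolated peaks.

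Isolated peaks mostly lay in thinly occupied megabases, as the rule favours, with exceptions. In bins of 1 Mb that start at the first base, 412 of the 1184 bins with a peak (34.8%) held an isolated one. Of these, 284 held 1, 102 held 2 and 26 held 3 or more. The median number of peaks was 15 in such bins (quartiles 12 and 20) and 28 in bins without an isolated peak. The bin with the most, 5 isolated peaks of 9 in all, was at 46000001 to 47000000 on chromosome 5. The bin at 40000001 to 41000000 on chromosome 9 had 4 of 6. At the other extreme, chosen after the values were seen, the bin at 1000001 to 2000000 on chromosome 8 held 2 isolated peaks among 50.

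The authors' score, a whole number of unstated scale, ran from 102 to 1572 among isolated peaks, with a median of 337 and quartiles of 262 and 480. For all other peaks of the same chromosomes the median was 369 and the quartiles were 274 and 532. Scores above 600 were held by 90 isolated peaks, or 15.8% (95% exact binomial interval 12.9 to 19.1%), against 18.9% of all peaks on these chromosomes. Scores below 250 were held by 120, or 21.1% (17.8 to 24.7%), against 17.6% of all. Scores above 1000 were held by 9, or 1.58%, against 3.26% of all. These round limits were chosen after seeing the data, and the intervals treat peaks as independent draws and cover counting error only.

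By rank, the lower scores of isolated peaks did not pass the threshold of 0.05 once adjusted. Pairs were formed of 1 isolated and 1 other peak of the same chromosome, and 50% means that neither outranks the other. The isolated peak had the higher score in 45.9 ± 7.41% of pairs (mean ± SD over n = 22 chromosomes), with 17 of 22 chromosomes below 50% (sign flips over chromosomes, permutation p = 0.0184, two-sided as all p-values here, adjusted p = 0.0570 over 12 comparisons). Chromosomes stand in as blocks here because the list has no replicates, so the p-value measures consistency along the genome and not between embryos. Chromosome values lay on both sides of 50%, from 33.3% on chromosome 24 to 60.5% on chromosome 23. The median score of isolated peaks was 265 on chromosome 24, against 393 for the others, and 520 on chromosome 23, against 373. Those medians rest on 22 and 13 isolated peaks.

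Leaving out chromosome 20, 23 or 25 brought the adjusted p to 0.0318, 0.0301 and 0.0379, with percentages of 45.3, 45.2 and 45.4 (sign-flip permutation tests). These 3 had the highest chromosome values, 59.7, 60.5 and 56.8%, so the mean was bound to fall without them. With any other chromosome left out the difference did not pass, with adjusted p up to 0.113. Weighting each chromosome by its number of isolated peaks, an alternative chosen after seeing the data, gave 45.5% (sign-flip permutation test, adjusted p = 0.0365). The call on score thus changed with the weight given to single chromosomes.

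Width showed a difference of like size, which did not pass either. Isolated peaks had a median width of 251 bp (quartiles 220 and 317 bp), against 263 bp (quartiles 225 and 353 bp) for the others. The narrowest peak was 200 bp wide in both sets, so the lower quartiles lay near that floor. Wider than 400 bp were 81 isolated peaks, or 14.2% (95% exact binomial interval 11.5 to 17.4%), against 19.2% of all peaks. Wider than 1000 bp was 1 isolated peak (0.176%), against 1.18% of all. The isolated peak was the wider one in 45.9 ± 6.69% of pairs (mean ± SD over n = 22 chromosomes), with 15 of 22 chromosomes below 50% (permutation p = 0.00956, adjusted p = 0.0570). The lowest value was 37.0% on chromosome 8 and the highest 58.6% on chromosome 12. Leaving out 1 of chromosomes 1, 2, 12, 20, 21, 23 or 25 gave adjusted p-values between 0.0200 and 0.0437 (sign-flip permutation tests). These 7 are the chromosomes above 50%, so the mean was bound to fall without them. With any other chromosome left out the difference did not pass, with adjusted p up to 0.0988. Weighting by isolated peaks gave 44.8% (sign-flip permutation test, adjusted p = 0.0306).

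**Figure D4:**
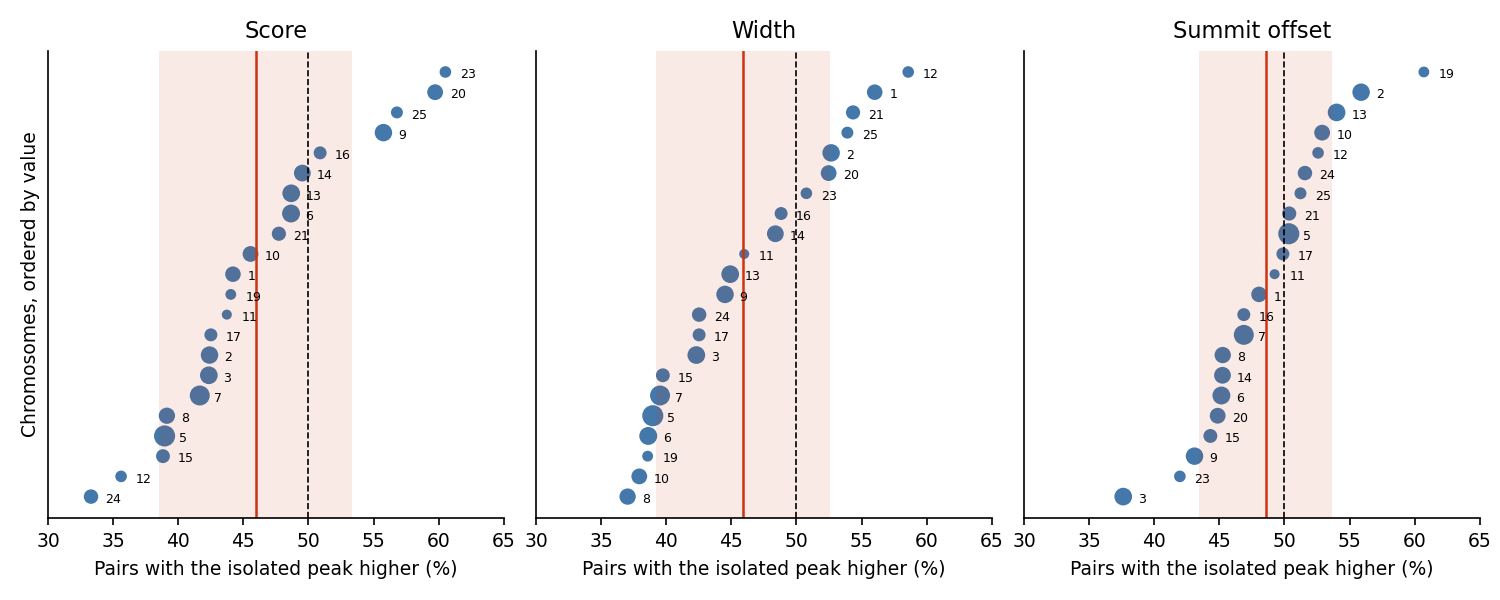
For each of the 22 chromosomes, the percentage of pairs of 1 isolated and 1 other CTCF peak in which the isolated one has the higher score (left), the greater width (middle) or the summit farther from the peak's middle (right); point size follows the number of isolated peaks and numbers name the chromosomes. The red line is the mean with ± 1 SD shaded, and the dashed line is 50%. Means of 45.9%, 45.9% and 48.5% lie left of 50%, with chromosomes on both sides.

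Score and width did not always go together along the genome. On 12 chromosomes the isolated peaks had both the lower median score and the lower median width, and on 3 (20, 23 and 25) both medians were higher. On 4 chromosomes (1, 12, 16 and 21) the median score was lower and the median width greater, and on 3 (9, 10 and 14) the reverse held. By pairs, the direction differed from that of the medians on chromosomes 2, 10, 14 and 16. The isolated peak had the higher score in 45.5, 49.5 and 50.9% of pairs on chromosomes 10, 14 and 16. It was the wider one in 52.7% on chromosome 2 and in 48.8% on chromosome 16. On chromosome 12, the median of 13 isolated peaks was 281 for score and 307 bp for width, where the other peaks had 370 and 261 bp. Across the 569 isolated peaks wider ones scored higher, with a Spearman's rho of 0.491, much as among the others (0.503); peaks are not replicates, and no test was made.

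The 5 highest-scoring isolated peaks were not the widest, with 1 exception. After the peak of chromosome 24 with 1572 (764 bp wide) came one on chromosome 6 at 6209560 to 6209853 with 1416, only 294 bp wide. Next were chromosome 21 at 18226344 to 18226714 with 1384, chromosome 24 at 18540143 to 18540565 with 1201 and chromosome 7 at 49816453 to 49816917 with 1141. Their widths were 371, 423 and 465 bp. Each ranked within the top 27 of its chromosome, and none stood more than 134 kb from its nearest peak.

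The widest isolated peak, 1806 bp at 22345862 to 22347667 on chromosome 25, had its summit at 16.9% of its width and a score of 621. The others of the 5 widest measured 776 bp (chromosome 1, 21612346 to 21613121, score 365), 764 bp (the peak of chromosome 24 with score 1572), 764 bp (chromosome 2, 26900512 to 26901275, score 206) and 757 bp (chromosome 8, 35731304 to 35732060, score 931). Wide isolated peaks thus included scores near both ends of the range.

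Summits of isolated peaks lay near the middle. The median summit stood at 49.6% of the width from the peak's start (quartiles 42.5% and 55.8%), left of the middle in 291 peaks and right of it in 274. Summit offset, the distance from the middle as a percentage of width, had a median of 6.83% (quartiles 3.004% and 13.0%), against 7.18% (quartiles 3.15% and 13.9%) for the others. Over 20% off the middle were 58 isolated peaks (10.2%), against 13.1% of all. The isolated peak had the larger offset in 48.5 ± 5.14% of pairs (mean ± SD over n = 22 chromosomes), with 13 of 22 chromosomes below 50%, and no difference was detected (permutation p = 0.200, adjusted p = 0.267).

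Against the peaks most like them, no comparison passed the adjusted threshold. A further 4629 peaks had more than 100 kb free on 1 side only, with medians of 358 for score and 255 bp for width. Of these, 15.9% scored above 600, 18.3% scored below 250 and 16.1% were wider than 400 bp, against 15.8, 21.1 and 14.2% of isolated peaks. The isolated peak had the higher score in 47.6 ± 8.07% of pairs with these (mean ± SD over n = 22 chromosomes), with 14 of 22 chromosomes below 50% (permutation p = 0.177, adjusted p = 0.266). For width it was 48.7 ± 7.01% (adjusted p = 0.432) and for summit offset 49.7 ± 5.14% (adjusted p = 0.822; permutation tests). Other peaks of the megabases that hold an isolated peak numbered 6385, with medians of 362 for score and 258 bp for width. The same shares were 16.8, 17.7 and 16.9% among them. Against these, the isolated peak was higher in score in 47.1 ± 7.16% of pairs, below 50% in 15 of 22 chromosomes (permutation p = 0.0735, adjusted p = 0.176). Width gave 47.9 ± 7.00% and summit offset 48.9 ± 5.17% (permutation tests, adjusted p = 0.266 and 0.378).

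Crowded peaks, the opposite case, differed from isolated ones in width. These 7201 peaks had a neighbour within 2 kb and a median width of 274 bp (quartiles 231 and 389 bp). An isolated peak was the wider one in 41.9 ± 7.08% of pairs with them (mean ± SD over n = 22 chromosomes), with 19 of 22 chromosomes below 50% (permutation p = 0.0001, adjusted p = 0.0012). This was the one comparison of the 12 that passed the adjusted threshold, and it did so with each chromosome left out in turn (adjusted p at most 0.00228). Merging peaks within 500 bp first joined their widths, changed both sets and left 588 isolated and 3686 crowded peaks. It gave 45.8% (sign-flip permutation test, adjusted p = 0.0907) and the call was lost. The call was also lost for the 38 peaks with 200 kb free on both sides, at 46.2% (permutation test, adjusted p = 0.607). Width may depend on spacing through how peaks were called, which was not tested. Summit offset against crowded peaks gave 46.9 ± 5.70%, below 50% in 15 of 22 (permutation test, two-sided p = 0.0190, adjusted p = 0.0570). Among peaks more than 5 Mb from both ends it was 45.3% (permutation test, adjusted p = 0.00762). After merging within 500 bp it was 48.2% (permutation test, adjusted p = 0.458). With 150 and 200 kb free on both sides it was 49.6 and 49.1% (permutation tests, adjusted p = 0.881 and 0.920). It passed with 50 kb, with weighted chromosomes and with chromosome 19 or 25 left out, as given at the end. Score gave 47.6 ± 7.67% (permutation test, adjusted p = 0.266), with medians of 337 and 361.

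Placed in order of distance to the nearest peak, the classes show where isolated peaks stand. Median width was lower at each step up to 200 kb, from 275 bp for a neighbour within 1 kb to 266 bp at 2 to 5 kb, 255 bp at 20 to 50 kb, 252 bp at 50 to 100 kb and 251 bp at 100 to 200 kb. Over the same classes, median score was highest at 2 to 5 kb, with 383, and lower on both sides, with 350 within 1 kb, 348 at 50 to 100 kb and 334 at 100 to 200 kb. The spread of medians over chromosomes was wider among isolated peaks, whose classes are small. It was 56.3 (SD of chromosome medians of score) at 100 to 200 kb, with 531 peaks, against 22.2 at 50 to 100 kb, with 1933.

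**Figure D5:**
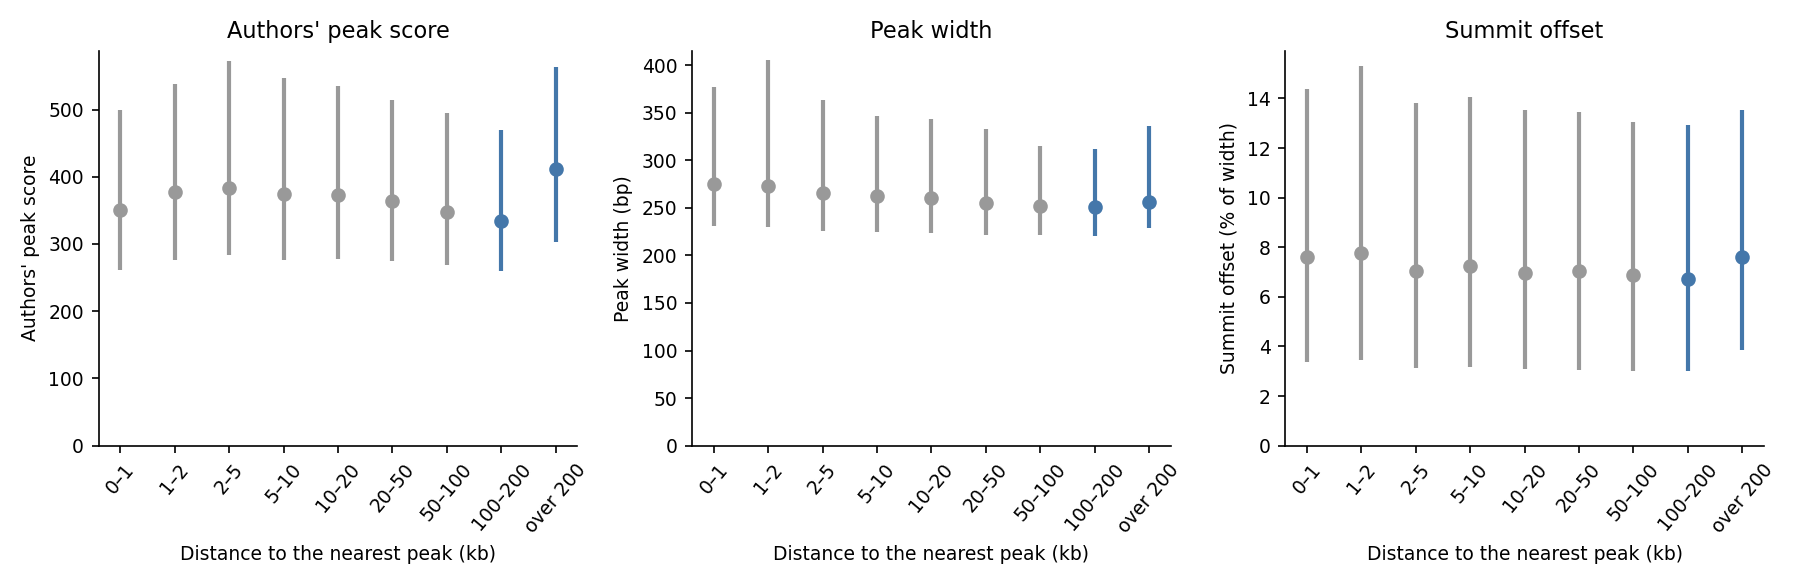
Median (point) and quartiles (bar) of the authors' peak score, the peak width in bp and the summit offset in percent of width, for CTCF peaks in classes of distance to the nearest peak in kb; grey classes are not isolated and blue classes are. Median width goes from 275 to 251 bp before the last class. Median score reaches 383 at 2 to 5 kb and 411.5 above 200 kb, the latter on 38 peaks.

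Scores were not lower still among the 38 peaks with more than 200 kb free on both sides. Their median score was 411.5 (quartiles 302.5 and 563), and 23 of them scored above 368, the median of the 22 chromosomes. The most isolated peaks had the higher score in 57.4 ± 19.9% of pairs with all other peaks (mean ± SD over n = 16 chromosomes that hold one), with 12 of 16 chromosomes above 50% (permutation p = 0.158, adjusted p = 0.380). This lies above 50%, whereas all isolated peaks gave 45.9%, but it did not pass. Within the isolated peaks, the lowest median score, 304, was at 110 to 120 kb (98 peaks) and the median at 120 to 150 kb was 341 (158 peaks). Distance to the nearest peak and score had a Spearman's rho of 0.0332 across the 569, as a description without a test.

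With the limit at 50 kb on both sides, 2502 peaks qualified, the 569 among them, and the differences in score and width passed. The higher score fell to such a peak in 46.5 ± 2.85% of pairs, below 50% in 20 of 22 chromosomes (permutation p = 2e-05, adjusted p = 6e-05). The greater width fell to it in 45.0 ± 2.47%, below 50% in 22 of 22 (permutation p = 1e-05, the lowest reachable, adjusted p = 4e-05). The percentages were close to those at 100 kb, 45.9% each, with a smaller spread over chromosomes. Most of the 2502, 1933 peaks, had their nearest neighbour at 50 to 100 kb and counted as other peaks at the 100 kb limit. With 150 kb free on both sides, 142 peaks qualified and neither difference passed. The percentages were 47.9 ± 13.7% for score and 44.7 ± 13.8% for width over 21 chromosomes (permutation tests, adjusted p = 0.848 and 0.540).

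Distance from the chromosome end, given above for its link with isolation, had only a lower bound in a further comparison. Past that bound the share of isolated peaks still went from 1.07% at 5 to 10 Mb to 4.62% past 20 Mb. Distance was therefore not matched between the sets. Among peaks more than 5 Mb from both ends the isolated peak had the higher score in 47.7% of pairs (sign-flip permutation test, adjusted p = 0.400) and the greater width in 47.6% (adjusted p = 0.400; permutation test). By class of distance from the end, median scores of isolated and other peaks were 348 and 371 at 5 to 10 Mb, 335 and 356 at 10 to 15 Mb, 343 and 356 at 15 to 20 Mb, and 337 and 353 past 20 Mb. Median widths had no one direction. They were 281 and 259 bp at 5 to 10 Mb, 262 bp for both at 10 to 15 Mb, 256 and 260 bp at 15 to 20 Mb, and 242 and 256 bp past 20 Mb. These classes held 71, 107, 123 and 243 isolated peaks. Among peaks of like width, taken within quartiles of width, the isolated peak had the higher score in 47.1% of pairs (sign-flip permutation test, adjusted p = 0.141). Within quartiles of score, it was the wider one in 47.5% of pairs with all other peaks (sign-flip permutation test, adjusted p = 0.297). Against crowded peaks the width comparison within quartiles of score passed, at 42.4% (sign-flip permutation test, adjusted p = 0.00212).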

How the data were processed

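The data are 1 list of CTCF peaks, which per the file headers the authors called on combined replicates. In the submitters' processing notes the build is danRer10, and MACS2, Bowtie2 2.2.5, cutadapt 1.3 and Picard 1.45 are among the tools, together with SAMtools 1.1, deepTools 3.0.1, FastQC 0.9.3 and CASAVA; their roles are not stated. Not given in the sources used here are the caller's threshold and the use of the input. The deposited score is a whole number per peak of unstated scale and was compared by rank. The deposited signal, p-value and q-value columns are 0 throughout and were not used.

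Centres, distances, widths and summit offsets were computed from the positions. The 12 comparisons set 3 measures of isolated peaks against 4 sets of peaks. Each is the mean over 22 chromosomes of the percentage of pairs in which the isolated peak is higher, with ties split evenly. Its departure from 50% was tested with 100000 random sign flips of the chromosome values (permutation test, two-sided) and Benjamini-Hochberg adjustment over the 12, which share the isolated peaks and are not independent (over 4 within quartiles of width or score). Chromosomes are not biological replicates. The procedure was tested on simulated scores drawn independently for each peak. Such scores cannot show how it behaves where neighbouring peaks are alike.

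The members, lists and comparisons were chosen with earlier results of these data known. Named peaks are the 10 farthest from their nearest neighbour, the 5 highest-scoring, the 5 widest, the 3 on either side of the limit and the longest runs; other peaks named were chosen after their values were seen. No genome or annotation of danRer10 was used, so sequences, motifs and nearby genes were not analysed, and assembly gaps were not removed from the distances. Alternatives were other limits, edge distances, higher-scoring or merged peaks, inner peaks, like widths or scores, and left-out or weighted chromosomes. Python 3.11.15, numpy 2.4.6, scipy 1.17.1, pandas 2.3.3 and matplotlib 3.10.9 were used.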

Additional observations from a re-analysis of the deposited data

Results flagged for a closer look

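The same rule applied to chromosomes 4, 18 and 22, which entered no comparison above, found 82 isolated peaks among the 4459 with neighbours on both sides. They are listed because this sequence lay outside the main measurement. Their share, 1.84%, was near the 1.78% of the 22 chromosomes. It was uneven, with 66 on chromosome 4 (5.92%), 9 on chromosome 18 (0.504%) and 7 on chromosome 22 (0.449%). Their median score was 354 and their median width 248.5 bp. No test was made between them and the 569 isolated peaks of the other chromosomes.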

How the results depend on the processing

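In 85 of 122 alternatives the direction held and so did the call at 0.05 (for the number of peaks, a change within 1.5 times). Weighting, and all alternatives for comparisons other than that with all other peaks, were chosen after seeing the data. The cause of the other changes was not tested. By construction the number of isolated peaks was 2502 with 50 kb, 142 with 150 kb and 38 with 200 kb on both sides, and 1313 among peaks scoring at or above the median. Peaks open on 1 side and peaks of the same megabases were also found anew at each limit, so these sets changed too. Open on 1 side were 9538 peaks with 50 kb and 1206 with 200 kb. Percentages of pairs with the isolated peak higher are given in the order score, width, summit offset. With 50 kb, comparisons now passing were 46.5, 45.0 and 48.4% against all other peaks, 47.9 and 47.9% (score, width) against peaks open on 1 side, 48.3% (score) and 46.8% (summit offset) against crowded peaks, and 47.3, 45.9 and 48.6% against peaks of the same megabases. With 200 kb, the values above 50% were 57.4, 51.0 and 51.1%, then 61.9, 58.6 and 54.0%, then 58.3% (score, crowded peaks), then 60.1, 56.3 and 50.4%, and the width against crowded peaks no longer passed at 46.2%. With 150 kb, summit offset was above 50% at 51.5, 52.8 and 52.4% (all other, open on 1 side, same megabases), as was score against peaks open on 1 side, at 51.2%. Width against all others passed at 46.8% among peaks scoring at or above the median. Isolation was found anew among these, so the 1313 include peaks that were not isolated in the full list. Weighting by isolated peaks made score (45.5%), width (44.8%) and summit offset against crowded peaks (46.3%) pass. More than 5 Mb from both ends, score against crowded peaks was 50.4% and summit offset passed at 45.3%. Within quartiles of width, score against crowded peaks was 51.0%. Merging within 500 bp left width against crowded peaks at 45.8%, not passing. With each chromosome left out, values against all others ran from 45.2 to 46.5% for score and 45.3 to 46.3% for width. Summit offset ran from 49.4 to 50.4% against peaks open on 1 side and from 46.3 to 47.4% against crowded peaks. Against crowded peaks it passed without chromosome 19 and without chromosome 25 (sign-flip permutation tests, adjusted p = 0.0238 and 0.0490). No paired analysis was possible because 1 list stands for both replicates and its columns give no replicate number; the planned fits without a replicate were not run for the same reason. The depth is unknown, so an empty flank means that no peak was called there, not that no site was bound.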
